A study of Mus musculus with 4 samples.

Results

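The genes described here are 32 genes of the unfolded protein response and the integrated stress response. They comprise 12 chaperones and folding enzymes of the endoplasmic reticulum (ER), 3 J-protein co-chaperones, 4 genes of ER-associated degradation, 6 sensors and transcription factors, and 7 targets of Atf4. They were taken by symbol from a list of names. The rule itself used no level or fold change, although earlier results of these samples were known when the list was drawn up. All 32 symbols were found among the 55487 genes counted, and all 32 genes reached the minimum of 10 counts in total that was set for the test. A second row annotated as Ddit3 held no count in any library and was not used.

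Mouse embryonic fibroblasts (MEFs) are primary cells grown from dissociated embryos, and those used here were wild-type cells from C57BL/6J embryos, at passage 2 by the sample labels and passage 3 by the paper's text. They were cultured for 24 h either untreated (control) or with 100 ng/mL recombinant pigment epithelium-derived factor (PEDF). PEDF is a secreted protein of the serpin family, and the recombinant protein had been purified from mammalian cells. In each of 2 experiments, on MEFs from separate embryos, 1 control and 1 PEDF library were sequenced, so that n = 2 for each condition. The libraries held between 14722848 and 18144640 counts. The question put to these libraries was how PEDF affects the transcripts of MEFs.

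The identity of the cells was checked against marker genes. All 8 fibroblast markers examined were detected, with a summed level between 35348 and 44249 CPM (counts in each 1000000 of the scaled library), and 7 macrophage markers summed to between 85.6 and 134 CPM. The sums were at most 16.7 CPM for 6 endothelial markers, of which Cldn5 was at 0 in every library, between 42.6 and 56.7 CPM for 6 epithelial markers, and between 370 and 474 CPM for 6 skeletal muscle markers. In RNA from whole cultures, fewer cells of a type and less RNA per cell cannot be told apart.

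The ER folds secreted and membrane proteins, a heavy load in fibroblasts, which secrete collagen. When unfolded proteins accumulate, 3 membrane sensors respond. Ire1 (gene Ern1) splices the Xbp1 mRNA into the form that encodes an active transcription factor, Atf6 is cleaved in the Golgi to release another, and Perk (Eif2ak3) phosphorylates the translation factor eIF2. Phosphorylated eIF2 lowers protein synthesis in general but permits translation of Atf4. Other kinases phosphorylate eIF2 during amino acid shortage and other stresses, and the shared outcome is called the integrated stress response. Xbp1 and Atf6 induce chaperones and degradation factors, and Atf4 induces genes of amino acid synthesis, Ddit3 and other effectors. Counts per gene do not separate spliced from unspliced Xbp1 mRNA, and they do not report the cleavage of Atf6 or the phosphorylation of eIF2.

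The DNA elements through which these factors act were looked for in the 250 bases before the RefSeq start of each gene (GRCm38.p6), on both strands, because they are the sequences that the transcription factors are known to read. A window was given for 29 of the 32 genes. The table of windows did not hold Hyou1, Manf and Atf6. The ER stress response element (ERSE) was searched as CCAAT, 9 bases of any kind and CCACG. It was present in 37 of 32851 windows of all genes (0.11%) and in 8 of the 30 windows of the stress response genes (26.7%), where Psat1 had a pair of windows. The 8 genes were Hspa5, Hsp90b1, Calr, Canx, Pdia6, Creld2, Dnajc3 and Syvn1, and Hsp90b1 held it at a pair of sites. The CCAAT box, which is part of the ERSE and in reverse of the ERSE-II, was in 33.85% of all windows and in 76.7% of the windows of the stress response genes. The stretches around 6 of the ERSE sites are given here in the direction in which the element reads, with its ends in capitals, to show the bases around and between them. The spacing is the same in each because the search fixed it.
Hspa5, chr2:34772020-34772048, strand plus: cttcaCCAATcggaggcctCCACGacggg
Calr, chr8:84847070-84847098, strand plus: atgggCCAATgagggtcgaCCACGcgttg
Canx, chr11:50325795-50325823, strand minus: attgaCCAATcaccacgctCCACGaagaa
Pdia6, chr12:17266486-17266514, strand plus: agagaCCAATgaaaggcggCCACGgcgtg
Dnajc3, chr14:118937822-118937850, strand plus: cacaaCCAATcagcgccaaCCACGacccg
Syvn1, chr19:6046527-6046555, strand plus: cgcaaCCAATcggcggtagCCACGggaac
The site of Hspa5 lay between 65 and 47 bases before the RefSeq start, within the longer limits that GENCODE gives for the gene. The site of Syvn1 was the nearest of those shown, between 44 and 26 bases before the start, and that of Calr the farthest, between 162 and 144 bases.

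A variant of the element, ERSE-II, searched as ATTGG, any base and CCACG, was found in 10 of all windows (0.03%), among them that of Herpud1, whose element is shown in capitals.
Herpud1, chr8:94386368-94386396, strand plus: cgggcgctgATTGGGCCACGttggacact
The UPR element TGACGTG, the binding motif of Xbp1 and Atf6, was in 542 windows (1.65%) and, among the stress response genes, in that of Hspa5. The element bound by Atf4 with C/EBP partners (CARE), searched as TGATGNAA, was in 1134 windows (3.45%) and in 3 of the 30 windows of the stress response genes (10.0%), those of Herpud1, Chac1 and Asns. The sites of the Atf4 targets Chac1 and Asns are shown with the element in capitals.
Chac1, chr2:119351038-119351067, strand minus: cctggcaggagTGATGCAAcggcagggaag
Asns, chr6:7693214-7693243, strand minus: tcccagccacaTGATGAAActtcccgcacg
The site of Asns began 23 bases before the start and that of Chac1 193 bases before it. A match of letters is a description of the window and not a measured binding site.

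The levels of the 32 genes spanned more than 2 orders of magnitude. Levels of different genes were compared as TPM, which are counts corrected for gene length and scaled to the same sum in each library. The calcium-binding chaperone calreticulin (Calr) was the most abundant at 2006 TPM as a mean of the 4 libraries, followed by the disulfide isomerase P4hb, which is also a subunit of the enzyme that hydroxylates collagen, at 1934 TPM. BiP (Hspa5), the Hsp70 chaperone of the ER, was at 1321 TPM, the glycoprotein isomerase Pdia3 at 1292 TPM and Grp94 (Hsp90b1) at 1006 TPM. The 12 chaperones and folding enzymes had a median of 599 TPM. The 3 sensors lay at the bottom of the order, with Eif2ak3 at 20.8 TPM, Atf6 at 15.1 TPM and Ern1 at 7.90 TPM. Between these ends, Atf4 was at 463 TPM, Xbp1 at 140 TPM and Ddit3 at 83.2 TPM, and the 4 genes of amino acid synthesis had a median of 227 TPM. Calr and P4hb overlapped in their ranges over the 4 libraries, as did Hspa5 and Pdia3.

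**Figure D1:**
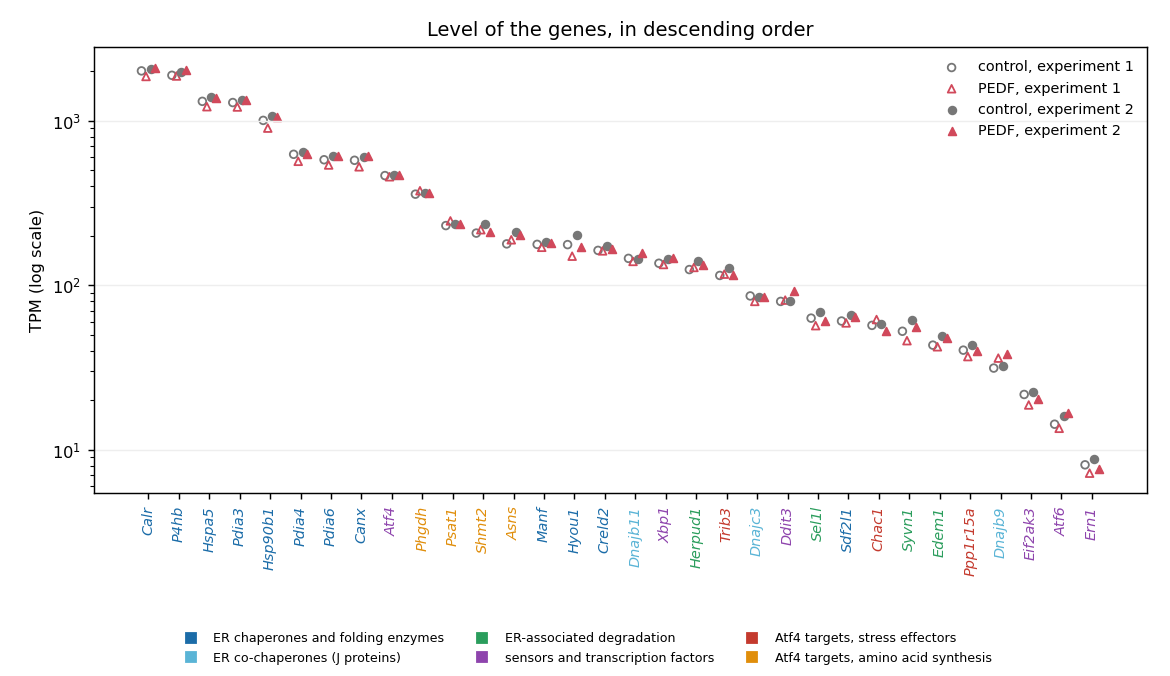
TPM (log scale) of the 32 genes in descending order of their mean over the 4 libraries, with open symbols for experiment 1, filled symbols for experiment 2, circles for control and triangles for PEDF. The symbols of a gene lie close together beside the distance from Calr at 2006 TPM to Ern1 at 7.90 TPM.

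The levels of these genes differed little between PEDF and control. In the fit without a term for the experiment, none of the 32 genes passed an adjusted p of 0.05 in the quasi-likelihood test of edgeR, and 0.00516% of all 19384 genes tested did. The smallest adjusted p among the 32 genes was 0.696, and Hyou1 and Dnajb9, 2 of the 32, were under 0.05 before adjustment, beside 6.88% of all genes tested. DESeq2 without the block and limma on log2 TPM also called none. The log2 fold changes lay between -0.22 and 0.24, with a median of -0.02, beside a median of 0.00 over all genes tested. The 95% intervals given here rest on a spread estimated with help from all genes, at n = 2 for each condition. They do not bound the effect in other preparations of MEFs. The 95% interval of the fold change lay within 1.5-fold in either direction for all 32 genes, and within 1.2-fold for 24 of them. The highest of the 4 libraries exceeded the lowest by 1.10-fold in the median of the 32 genes, and by 1.14-fold in the median of the 7460 genes at least as abundant as Ern1, the least abundant of the 32 by CPM. The 7460 genes share this lower limit but were not matched to the 32 in abundance or length.

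Since each experiment had its own preparation of MEFs, a term for the experiment, called the block here, was added. With the block, Hyou1 alone of the 32 genes passed an adjusted p of 0.05, and it was lower with PEDF. This is to be read against the 3.75% of all genes tested that passed with the block, 2.07% with a lower level in PEDF, and the 8.39% among the 7460 genes at least as abundant as Ern1. A further 5 of the 32 genes had an unadjusted p under 0.05, namely Dnajb9, Ddit3, Sel1l, Syvn1 and Eif2ak3, which makes 6 of the 32 with Hyou1, beside 14.6% of all genes tested. With the block, the 95% interval lay within 1.2-fold in either direction for 27 of the 32 genes. For Shmt2 that interval, from -0.12 to 0.07, held neither its log2 ratio within experiment 1, 0.11, nor that within experiment 2, -0.16. The median size of the log2 fold change, regardless of sign, was 0.036 for the 32 genes and 0.078 for the 7460 genes, which were not matched to them in abundance or length. In DESeq2 with the block, Hyou1 was again the only one called, while 9.01% of the 1310 genes that received an adjusted p were called and 13 of the 32 genes received none.

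**Figure D2:**
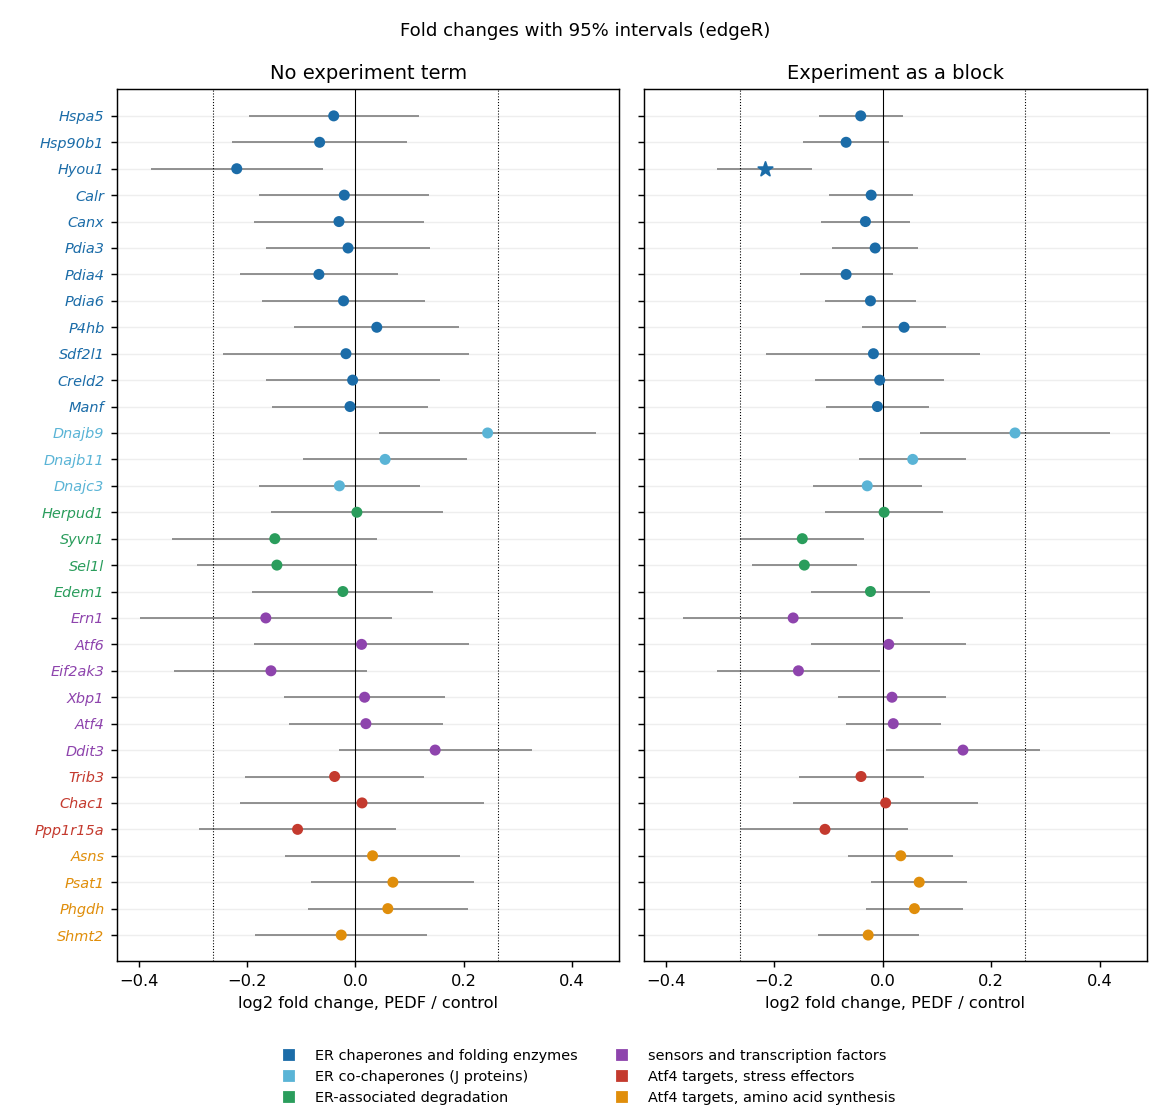
Log2 fold change of PEDF against control with its 95% interval from edgeR for each of the 32 genes, without an experiment term (left) and with the experiment as a block (right), where dotted lines mark 1.2-fold in either direction and the star marks an adjusted p under 0.05. All intervals lie within 1.5-fold, and Hyou1 carries the only star, at -0.22.

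Hyou1 (ENSMUSG00000032115, chr9:44379490-44392369 of GRCm38, plus strand), also called Grp170, is a large chaperone of the ER that serves as a nucleotide exchange factor of BiP. Its level was 452 CPM in the control and 395 CPM in the PEDF library of experiment 1. In experiment 2 it was 503 CPM in the control and 426 CPM in the PEDF library. Both PEDF libraries thus lay below both control libraries (a lack of overlap in either direction that 42.0% of the 7460 genes at least as abundant as Ern1 also showed), with a change of -12.6% within experiment 1 and of -15.4% within experiment 2. The mean was 478 ± 36.1 CPM (SD, n = 2) in control and 411 ± 21.8 CPM (SD, n = 2) in PEDF libraries. The log2 fold change was -0.22 in both fits, with an interval from -0.38 to -0.06 and an adjusted p of 0.696 in edgeR without the block, where it was -0.14 without control replicate 2. With the block its standard error was 0.044 and the adjusted p was 0.000111 in edgeR, and the adjusted p was 0.00937 in DESeq2.

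Other quantities moved with the treatment beside Hyou1. Across the 10857 genes with a mean log2 CPM above 3, longer genes had lower fold changes, with a slope of -0.0389 on the log2 scale for each doubling of length in experiment 1 and of -0.0548 in experiment 2, and Hyou1 has a summed exon length of 7230 bp. After an offset that removed the trend of each library with length and GC content, the log2 fold change of Hyou1 in the blocked fit was -0.17 with an adjusted p of 0.00421, while 2.1% of all genes passed. The summed fibroblast markers were also lower with PEDF, at 35348 against 38166 CPM in experiment 1 and 38019 against 44249 CPM in experiment 2. Most of that difference lay in Col1a1, at 17302 against 19417 CPM and 19320 against 24006 CPM, whereas Dcn and Thy1 were higher with PEDF in both experiments and Vim was between 3382 and 3569 CPM in every library. Dcn was at 107 against 91.0 CPM and at 92.3 against 67.1 CPM. The summed skeletal muscle markers were higher, at 411 against 370 CPM and 474 against 442 CPM. The part of these markers in the result was not tested.

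The other chaperones and folding enzymes did not pass the test in either fit. BiP (Hspa5, ENSMUSG00000026864, chr2:34771970-34777547 of GRCm38, plus strand), whose transcript is a standard readout of ER stress, was at 1965 CPM in the control and 1873 CPM in the PEDF library of experiment 1, and at 2032 and 2014 CPM in experiment 2. Its mean was 1998 ± 47.0 CPM (SD, n = 2) in control and 1944 ± 99.5 CPM (SD, n = 2) in PEDF libraries, so the groups overlapped. The log2 fold change was -0.04 with an adjusted p of 0.933 without the block and 0.725 with it. Of the 12 genes, 9 were lower with PEDF in experiment 1 and 6 in experiment 2, and 4 were lower in both (Hspa5, Hsp90b1, Hyou1 and Pdia4). P4hb was the only one higher in both, at 1947 against 1914 CPM and at 2014 against 1940 CPM.

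Calr was at 2050 and 1947 CPM in the control and PEDF libraries of experiment 1 and at 2057 and 2101 CPM in experiment 2, so that the direction differed between the experiments. Hsp90b1 was at 1435 and 1323 CPM in experiment 1 and at 1493 and 1474 CPM in experiment 2. Leaving Hyou1 aside, the log2 fold changes of this group without the block ran from -0.07 for Pdia4 and Hsp90b1 to 0.04 for P4hb. The lectin chaperones Calr and Canx, which hold glycoproteins during folding, were at -0.02 and -0.03. Pdia3, which acts with them, was at -0.01, and the isomerase Pdia6 was at -0.02. Sdf2l1, Creld2 and Manf, which encode proteins of the secretory pathway known to be strongly induced by ER stress, were at -0.02, -0.01 and -0.01. The levels of Creld2 lay between 78.8 and 81.3 CPM and those of Manf between 218 and 222 CPM over the 4 libraries.

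The PEDF library of experiment 1 held the lowest level of 9 of the 12 genes. Without that library, 8 of the 12 turned from below to above 0, beside P4hb, and the group's median was 0.01. Pdia4 was at 531 and 535 CPM in the control libraries and at 495 and 522 CPM in the PEDF libraries of experiments 1 and 2, a non-overlapping but small difference with an adjusted p of 0.513 in the blocked fit. With the offset for length and GC content, the log2 fold change of Pdia4 was -0.14 and its adjusted p was 0.0243, in a fit that called 2.1% of all genes tested. Without the block its log2 fold change of -0.07 became -0.03 when the PEDF library of experiment 1 was left out and -0.11 when that of experiment 2 was left out. In the fit with the offset all 12 genes were below 0, with a median of -0.07, Hsp90b1 was at -0.12 with an adjusted p of 0.0726 and P4hb was at -0.0021. The share of all genes below 0 in that fit is not given here.

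**Figure D3:**
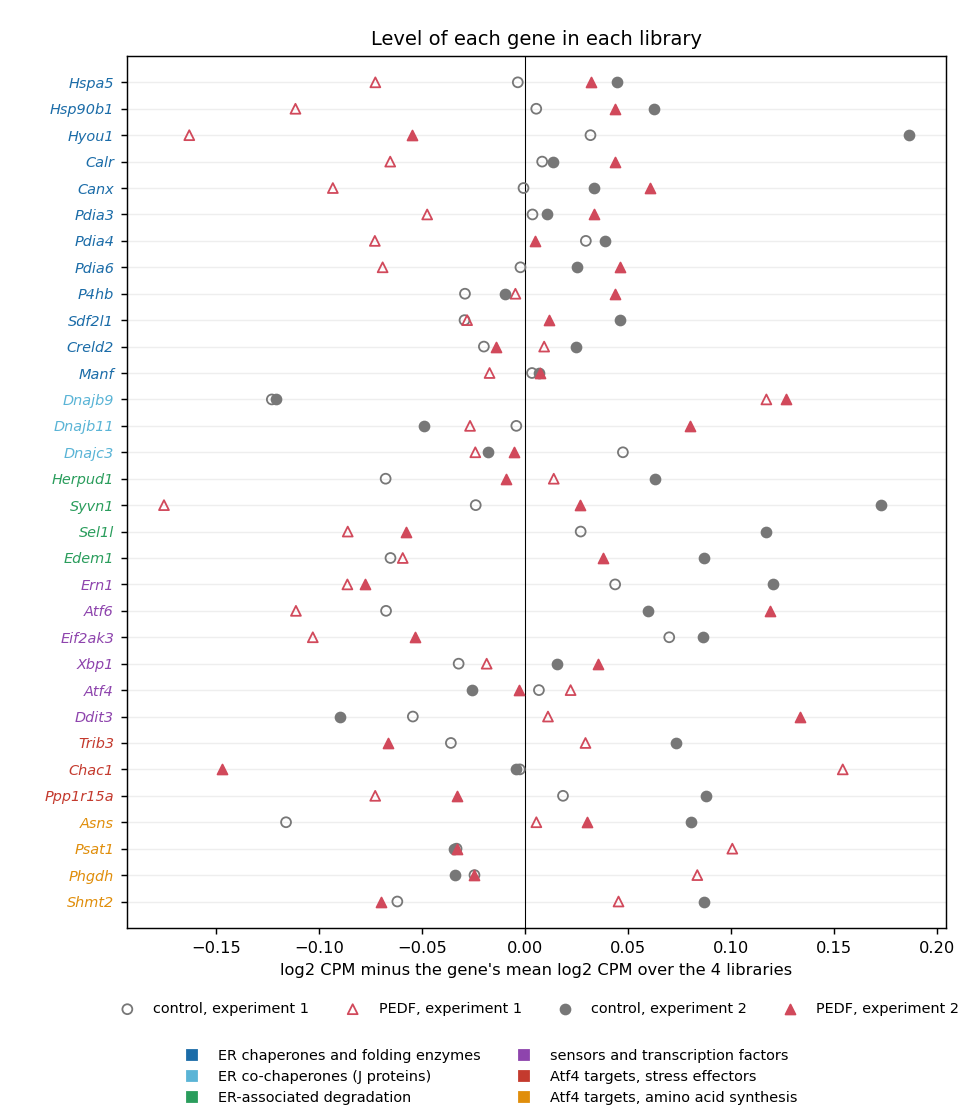
Log2 CPM of each gene in each library minus the gene's mean over the 4 libraries, with open symbols for experiment 1, filled symbols for experiment 2, circles for control and triangles for PEDF. Both triangles lie left of both circles for Hyou1 and right of both circles for Dnajb9, and the open triangle is leftmost for most chaperones.

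Among the J-protein co-chaperones, which bring substrates to BiP and stimulate its ATPase, none passed the test. Dnajb9 (ERdj4), a repressor of Ire1 and itself an Xbp1 target, had the largest log2 fold change in size of the 32 genes in the fits of all 4 libraries without an offset. It was at 28.3 CPM in the control and 33.5 CPM in the PEDF library of experiment 1, and at 28.4 and 33.7 CPM in experiment 2. The control libraries were nearly equal, and both PEDF libraries were higher, by 18.1% and 18.7%. The log2 fold change was 0.24 and did not pass in any fit, with an adjusted p of 0.696 without the block and 0.108 with it. With the offset for length and GC content it was 0.14 with an adjusted p of 0.583. The counts behind these values were 418, 520, 506 and 600 for control and PEDF of experiment 1 and control and PEDF of experiment 2. Dnajb11 (ERdj3) was at 167 and 164 CPM in experiment 1 and at 162 and 177 CPM in experiment 2, which are log2 ratios of -0.02 and 0.13. For Dnajc3 (p58IPK), an inhibitor of eIF2 kinases, the ratios were -0.07 and 0.01, with levels between 149 and 157 CPM.

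ER-associated degradation moves misfolded proteins to the cytosol for the proteasome. Its ubiquitin ligase Hrd1 (Syvn1) and the partner that stabilizes it, Sel1l, were lower with PEDF within both experiments, without passing the test. Syvn1 was at 90.4 against 81.4 CPM in experiment 1 and at 103.6 against 93.6 CPM in experiment 2. Here the groups overlapped, because the difference between the experiments was larger than that between the conditions. Its log2 fold change was -0.15, with an adjusted p of 0.763 without the block and 0.143 with it. Without the block it was -0.05 when control replicate 2 or PEDF replicate 1 was left out, and -0.24 and -0.25 without control replicate 1 and PEDF replicate 2. Sel1l was at 191 against 177 CPM and at 204 against 180 CPM, with no overlap between the groups, a log2 fold change of -0.15 and an adjusted p of 0.722 without the block and 0.0714 with it. With the offset for length and GC content it was -0.08 with an adjusted p of 0.48, Sel1l having a summed exon length of 8555 bp. Herpud1, a ligase cofactor that is strongly induced by ER stress, was at 103 and 109 CPM in the control and PEDF libraries of experiment 1 and at 113 and 107 CPM in experiment 2, which are log2 ratios of 0.08 and -0.07. Edem1, which extracts misfolded glycoproteins from the folding cycle, had log2 ratios of 0.01 and -0.05.

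The 3 sensors showed no shared direction. Ern1 was lower with PEDF within both experiments, at 23.4 against 21.4 CPM and at 24.7 against 21.6 CPM, as was Eif2ak3, at 46.3 against 41.0 CPM and at 46.8 against 42.5 CPM. Atf6 was at 46.8 against 45.4 CPM in experiment 1 and at 51.1 against 53.2 CPM in experiment 2. The log2 fold changes were -0.17 for Ern1, -0.16 for Eif2ak3 and 0.01 for Atf6, and the adjusted p values with the block were 0.495, 0.312 and 0.97. With the offset, Ern1 was at -0.10, Eif2ak3 at -0.13 and Atf6 at 0.07. Ern1 had between 333 and 441 counts in a library, and its 95% interval was among the widest of the 32 genes, from -0.40 to 0.07 without the block.

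The transcription factors downstream of the sensors were at nearly equal levels. Xbp1 (ENSMUSG00000020484, chr11:5520659-5525893 of GRCm38, plus strand) was at 157 CPM in the control and 158 CPM in the PEDF library of experiment 1, and at 162 and 164 CPM in experiment 2. Atf4 (ENSMUSG00000042406, chr15:80255184-80257541 of GRCm38, plus strand) was at 388 and 392 CPM in experiment 1 and at 379 and 385 CPM in experiment 2. Both differed by less than the difference between the control libraries. The log2 fold change was 0.02 for each, with a 95% interval from -0.13 to 0.16 for Xbp1 and from -0.12 to 0.16 for Atf4 without the block. Atf4 is controlled mainly by translation, which these data do not measure.

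Ddit3 (Chop, ENSMUSG00000025408, chr10:127290774-127296288 of GRCm38, plus strand), a factor that Atf4 induces and that promotes cell death in prolonged ER stress, was at 48.4 CPM in the control and 50.6 CPM in the PEDF library of experiment 1. In experiment 2 it was at 47.2 CPM in the control and 55.1 CPM in the PEDF library. Both PEDF libraries were above both controls, but the difference was 4.65% in experiment 1 and 16.8% in experiment 2. The log2 fold change was 0.15, with an adjusted p of 0.758 without the block and 0.309 with it. Without PEDF replicate 2 it was 0.08 in the fit without the block. With the offset for length and GC content it was 0.04, Ddit3 having a summed exon length of 1713 bp.

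None of the 7 Atf4 targets other than Ddit3 passed the test in either fit, where the smallest adjusted p was 0.541, that of Psat1 with the block. In experiment 1, 6 of the 7 were higher with PEDF, and in experiment 2, 5 of the 7 were lower. The 4 genes of amino acid synthesis were all higher in experiment 1, by 0.11 to 0.13 on the log2 scale. Psat1 and Phgdh, enzymes of serine synthesis, had log2 ratios of 0.13 and 0.11 in experiment 1 and of 0.00 and 0.01 in experiment 2. Psat1 was at 381 CPM in the PEDF library of experiment 1 and between 347.1 and 347.4 CPM in the other 3 libraries. Phgdh was likewise at 340 CPM in that library and between 313 and 315 CPM in the others. Shmt2, which makes glycine and one-carbon units from serine in mitochondria, had a log2 ratio of 0.11 in experiment 1 and -0.16 in experiment 2. It was at 228 CPM in the control and 246 CPM in the PEDF library of experiment 1, and at 253 and 227 CPM in experiment 2. Asparagine synthetase (Asns) had log2 ratios of 0.12 and -0.05, with 173 against 188 CPM and 198 against 191 CPM.

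Of the stress effectors, Trib3, a pseudokinase that feeds back on Atf4, had a log2 ratio of 0.07 in experiment 1 and -0.14 in experiment 2, with 86.3 against 90.3 CPM and 93.1 against 84.5 CPM in control and PEDF libraries. Chac1, an enzyme that degrades glutathione, had log2 ratios of 0.16 and -0.14, with 33.1 against 36.9 CPM and 33.0 against 29.9 CPM. Ppp1r15a (Gadd34), the phosphatase subunit that reverses the phosphorylation of eIF2, had log2 ratios of -0.09 and -0.12, with 41.9 against 39.4 CPM and 44.0 against 40.5 CPM. With 1 library for each condition within an experiment, the difference between the experiments was not tested.

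**Figure D4:**
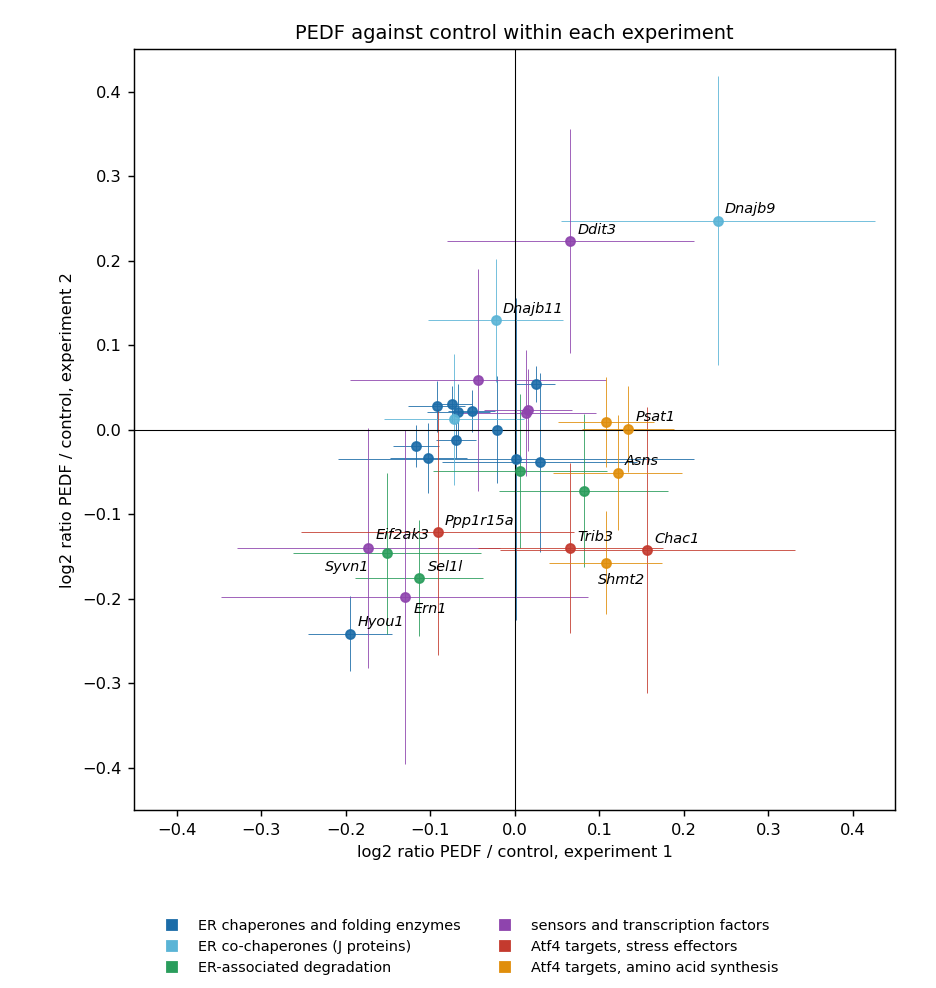
Log2 ratio of PEDF to control in experiment 1 (horizontal) against experiment 2 (vertical) for the 32 genes, coloured by role, with bars for the 95% interval from counting error alone. Hyou1 lies at -0.19 and -0.24, Dnajb9 at 0.24 and 0.25, and 4 of the 7 Atf4 targets lie right of the vertical line and below the horizontal line.

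Over all 32 genes, 7 were higher with PEDF in both experiments, 9 were lower in both and 16 had opposite signs. The same sign in both experiments was thus seen for 16 of the 32 genes, beside 67.6% of the 7460 genes at least as abundant as Ern1. The PEDF and control libraries did not overlap for 10 of the 32 genes, namely Hyou1, Pdia4, P4hb, Dnajb9, Sel1l, Ern1, Eif2ak3, Ddit3, Ppp1r15a and Psat1. This is fewer, in proportion, than the 42.0% of the 7460 genes, a difference that was not tested.

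The genes whose windows held the ERSE were also considered together. The 8 genes had blocked log2 fold changes from -0.15 (Syvn1) to -0.01 (Creld2), with a median of -0.03, and none was called. They were lower with PEDF for 7 genes in experiment 1 and for 4 genes in experiment 2, and without the PEDF library of experiment 1 the values of Hspa5, Hsp90b1, Calr, Canx and Pdia6 were above 0. The 21 genes with a window that lacked an exact match had a median of 0.00, and Herpud1, whose window held ERSE-II, was among them. Lack of an exact match in this window does not show that a gene lacks such an element. With the offset for length and GC content, the median was -0.07 for the 8 genes and -0.05 for the 21 genes, and none of the 8 was called. Of the genes with a CARE, Herpud1, Chac1 and Asns had blocked log2 fold changes of 0.00, 0.01 and 0.03, and of -0.06, -0.06 and -0.03 with the offset.

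The fold changes were also set beside gene length. The 7 genes with a summed exon length over 5000 bp (Hyou1, Dnajc3, Sel1l, Edem1, Ern1, Atf6 and Eif2ak3) had a median of -0.14 in the blocked fit, and the 25 shorter ones a median of -0.01. Among the long ones, Atf6, the longest at 9231 bp, was at 0.01, Edem1 at -0.02 and Dnajc3 at -0.03. Among the genes at least as abundant as Ern1, the 3646 longer than 5000 bp had a median of -0.05 and the 3813 shorter ones a median of 0.05. After the offset, the medians were -0.08 for the 7 long and -0.06 for the 25 short stress response genes, and -0.0017 and 0.01 for the long and short genes of the 7460. With the offset 25 of the 32 genes were below 0, compared with 20 of the 32 in the blocked fit without it. The share of all genes below 0 in these fits is not given here. With the offset 2 of the 32 genes were called, Hyou1 and Pdia4, beside 2.1% of the 19384 genes tested.

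**Figure D5:**
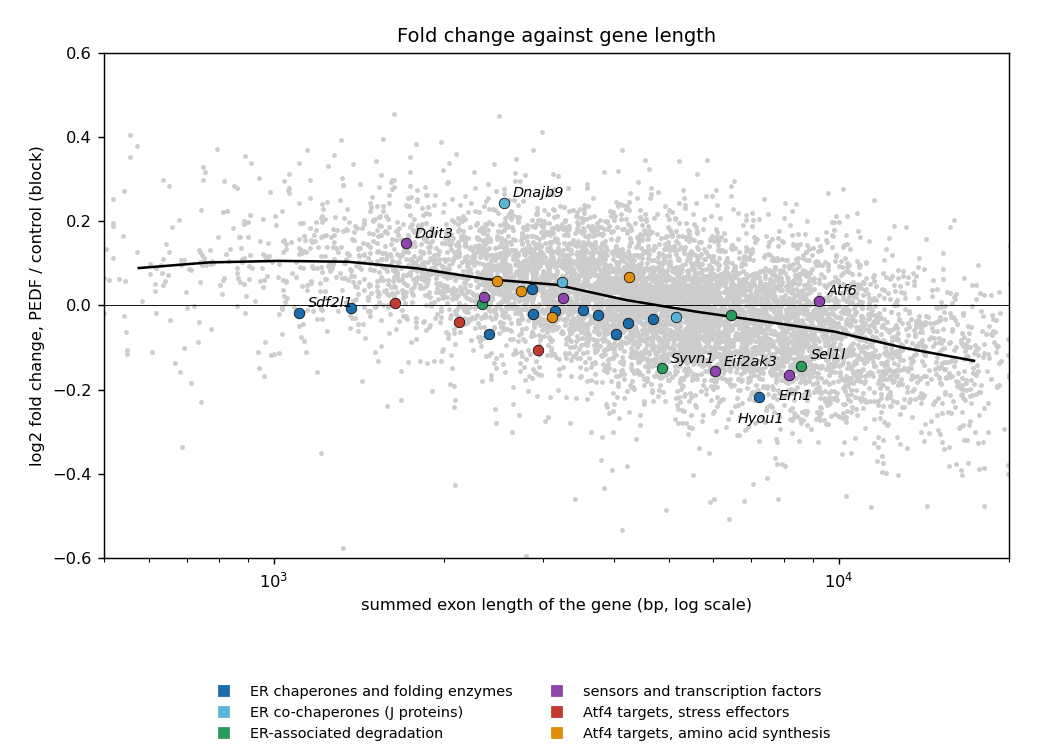
Log2 fold change of PEDF against control (experiment as a block) against the summed exon length of the gene (bp, log scale), for the 32 genes (coloured by role) and for the genes at least as abundant as Ern1 (grey), with their running median as a line and genes outside the axes left out. The line falls from above 0 at short lengths to below 0 at long lengths, and Hyou1 and Dnajb9 lie away from it.

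The difference between the preparations of MEFs was set beside that of the treatment. In the fit with both terms, 27 of the 32 genes were higher in experiment 2 than in experiment 1, with a median log2 difference of 0.04, beside 0.00 over all genes tested. This difference also varied with gene length, with a slope on the log2 scale for each doubling of length of 0.0490 in control and 0.0331 in PEDF libraries, and its part in the shift was not tested. The difference between the experiments was larger in size than that between the conditions for 19 of the 32 genes. Syvn1 was the only one to pass an adjusted p of 0.05, with a log2 difference of 0.20 and an adjusted p of 0.0202, while 4.49% of all genes passed. The call was lost with the experiment as the only term (adjusted p = 0.600), and in that fit without any 1 of the 4 libraries, with adjusted p values from 0.121 to 1.00. Hyou1 was at 0.13 with an adjusted p of 0.0621. Chac1 had the lowest value, -0.15, with an adjusted p of 0.42.

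The remaining genes of these pathways were taken from 8 lists with 136 genes, of which 135 entered the test. None passed without the block, where 6 had an unadjusted p under 0.05, beside 6.88% of all genes tested. With the block 6 passed, beside 3.75% of all genes tested and 8.39% of the genes at least as abundant as Ern1, so the number of calls was near the background. In DESeq2 with the block fewer of the 135 were called, in a fit where 1310 genes received an adjusted p. The calls described next are those of edgeR. Uggt1, the sensor of glycoprotein folding that returns unfolded glycoproteins to Calr and Canx, was at 271 CPM in the control and 222 CPM in the PEDF library of experiment 1, and at 310 and 263 CPM in experiment 2. It fell by 0.26 on the log2 scale, with an adjusted p of 6.97e-06. Ganab, the catalytic subunit of glucosidase II, which trims the same glycoproteins, fell by 0.16 (adjusted p = 0.0183), from 436 to 377 CPM and from 460 to 429 CPM. Sec61b and Sec61g, subunits of the channel through which proteins enter the ER, rose by 0.18 and 0.23 (adjusted p = 0.0316 and 0.0161). Their levels were 112 against 122 CPM and 98.2 against 115 CPM for Sec61b, and 71.2 against 76.9 CPM and 57.3 against 72.5 CPM for Sec61g.

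The remaining calls were amino acid transporters that Atf4 is known to induce. Slc7a1, which carries cationic amino acids, was at 125 against 108 CPM and at 138 against 117 CPM, and fell by 0.23 (adjusted p = 0.00202). Slc38a2, which carries small neutral amino acids, was at 311 against 272 CPM and at 356 against 307 CPM, and fell by 0.20 (adjusted p = 0.000754). Their list, 19 further Atf4 targets of amino acid and one-carbon metabolism, had a blocked median of -0.09, with 12 of its genes lower and 2 higher with PEDF in both experiments. With the offset for length and GC content, Uggt1, Ganab and Slc38a2 were still called, Slc7a1, Sec61b and Sec61g were not, and Erp29, an ER chaperone without isomerase activity, was called at 0.16 (adjusted p = 0.0202).

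No gene of the other 5 lists passed the test with the block. The blocked medians were 0.01 for 18 further genes of ER-associated degradation, 0.01 for 10 further sensors, proteases and transcription factors, 0.04 for 12 genes of the eIF2 kinases, eIF2 and its exchange factor, 0.02 for 14 partner factors and stress-induced targets of Atf4, and -0.03 for 20 aminoacyl-tRNA synthetases. In the order of these 5 lists, 5, 3, 8, 3 and 2 genes were higher and 4, 4, 1, 2 and 7 genes were lower with PEDF in both experiments. The lists with calls had blocked medians of 0.00 for 24 further ER folding genes with 9 genes higher and 8 lower in both experiments, and 0.05 for 18 genes of ER translocation and signal peptide processing, with 8 higher and 4 lower. Of the 7460 genes at least as abundant as Ern1, 67.6% had the same sign in both experiments.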

How the data were processed

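RNA was measured in 2 control and 2 PEDF libraries. Per the paper's methods and the submitters' processing notes, the authors checked reads with FastQC 0.11.7, trimmed them with Trimmomatic 0.38, aligned them to mm10 with HISAT2 2.1.0, converted them with SAMtools 1.9 and obtained uniquely mapped read counts per gene with featureCounts 1.6.3. The deposited counts were not normalized. The deposited TPM values equal counts divided by summed exon length, rescaled, within 5% for 99.1% of genes over 50 counts. The annotation and strand setting are not given in the sources used here. Coordinates equal those of GENCODE M21 (GRCm38) for 54784 of 55487 genes.

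The main test was the quasi-likelihood test of edgeR 4.0.16 in R 4.3.3, with TMM factors from 0.983 to 1.01, no covariate, robust dispersions, and p-values adjusted by the Benjamini-Hochberg method across the 19384 genes that reached 10 counts in all. Intervals and standard errors came from this test. Since the labels say that embryos differed between experiments, libraries of an experiment share a preparation. The log2 ratios of experiment 2 to experiment 1 in control and in PEDF libraries were correlated (r = 0.415) across the 10857 genes whose mean log2 CPM exceeded 3, which are genes and not independent samples, and the experiment was fitted as a block beside the main test. The offset for length and GC content used natural splines of 5 degrees of freedom. Alternatives were DESeq2 1.42.0, RLE factors, other filters on low counts, limma 3.58.1 on log2(TPM + 1) and log2(TPM + 0.1), and each library left out. The statistics were tested on simulated data with changes far larger than those reported here, which does not show how well changes of this size are detected.

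The members and lists were chosen with earlier results of these data known. All 32 genes are named. Values in every library were to be given for Hspa5, Xbp1, Atf4, Ddit3 and genes with an adjusted p under 0.05 with or without the block, among other pathway genes for at most 10 of these. Values per library of further members, and Erp29, were added after they were seen. The sequences are from RefSeq promoter windows. Intervals of the log2 ratio within an experiment cover counting error only.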

Additional observations from a re-analysis of the deposited data

How the results depend on the processing

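For PEDF against control, the number of the 32 genes past an adjusted p of 0.05 was 0 in the main test and 0 with DESeq2, RLE factors, no filter on low counts, filterByExpr, limma on either TPM scale and without each replicate. It was 1 with the replicate block in edgeR, 1 with the block in DESeq2 and 2 with the block and the offset for length and GC content. The number of other pathway genes was 0 in the main test, 6 and 2 with the block in edgeR and DESeq2, and 4 with the block and the offset. Of all genes with an adjusted p in these fits with the block, 3.75%, 9.01% and 2.1% were called, in that order. The block changed no other call among the 32 genes. The median fold change of the 32 genes, -0.02, was -0.06 with the offset, -0.042 on log2(TPM + 1), -0.043 on log2(TPM + 0.1) and -0.049 to 0.0058 without 1 library.

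Fold changes close to 0 turned direction in several settings, and none of them was called. With the block and the offset, the values were -0.0021 for P4hb, -0.061 for Herpud1, 0.00074 for Edem1, -0.015 for Xbp1, -0.032 for Atf4, -0.061 for Chac1 and -0.030 for Asns. In limma on log2(TPM + 1) they were -0.019 for Herpud1, -0.015 for Atf6, -0.0069 for Xbp1, -0.0046 for Atf4 and -0.016 for Chac1, and on log2(TPM + 0.1) they were -0.019, -0.016, -0.0070, -0.0046 and -0.017. Without 1 library the ranges were Hspa5 -0.093 to 0.010, Hsp90b1 -0.15 to 0.0086, Calr -0.076 to 0.032, Canx -0.11 to 0.044, Pdia3 -0.054 to 0.025, Pdia6 -0.080 to 0.034, Sdf2l1 -0.054 to 0.021, Creld2 -0.028 to 0.016, Manf -0.022 to 0.0013, Dnajc3 -0.063 to 0.0024, Herpud1 -0.061 to 0.069, Edem1 -0.10 to 0.055, Atf6 -0.11 to 0.12, Xbp1 -0.0098 to 0.043, Trib3 -0.092 to 0.016, Chac1 -0.14 to 0.16, Asns -0.064 to 0.13, Shmt2 -0.10 to 0.049. The cause was not tested. Hyou1 ranged from -0.29 to -0.14 and Dnajb9 from 0.24 to 0.25.

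For experiment 2 against experiment 1, the count of 1 gene was 0 with DESeq2, 2 with no filter, 0 with the experiment as the only term and 3 with the offset. The share of all genes called in these other settings is not given here, so the counts cannot be read against it. Atf4 turned to 0.013 with the offset. Without 1 library the ranges were Pdia4 -0.0080 to 0.10, Creld2 -0.0088 to 0.027, Dnajb9 -0.13 to 0.13, Dnajb11 -0.037 to 0.10, Dnajc3 -0.059 to 0.013, Sel1l -0.03 to 0.14, Ern1 -0.057 to 0.14, Eif2ak3 -0.052 to 0.12, Ddit3 -0.072 to 0.15, Trib3 -0.064 to 0.073, Ppp1r15a -0.0066 to 0.11, Shmt2 -0.063 to 0.091. With 2 libraries a condition, a library left out leaves 1 that is assumed to vary like the others. The 95% intervals were widest for the genes with the fewest counts, such as Ern1, which limits what could be detected at this depth.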
